A study of Mus musculus with 4 samples.

Results

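The inflammatory cytokine genes of microglia described here are Il1a, Il1b, Il1rn and Il18 of the interleukin-1 (IL-1) family, Tnf, the IL-6 type genes Il6, Lif and Osm, Il27 and Il10. They were chosen by gene symbol, and all 10 were found among the 54532 genes of the series, of which 22046 are protein-coding. RNA was sequenced from cultured microglia of newborn male CD1 mice, an outbred stock with no engineered allele, in 4 libraries. In the EGCG group, 2 cultures had been kept for 24 h in serum-free medium with 1 µM epigallocatechin gallate (EGCG), the main catechin of green tea. In the Vehicle group, 2 cultures had received the DMSO solvent alone. Per the study's methods, the medium of both groups held the cytokines IL-34, TGFβ2 and GM-CSF, and cholesterol. The mixed cultures had earlier been given GM-CSF to make the microglia multiply. The labels name no inflammatory stimulus. Each EGCG library shares a biological replicate number with a Vehicle library, and according to the study's methods the microglia were the cells left on the dish after the astrocyte layer of a mixed cortical culture had been lifted off with trypsin. In replicate 1, 33752397 counts fell on genes with Vehicle and 34259608 with EGCG. In replicate 2 these totals were 36265508 and 54909854.

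Microglia are the resident macrophages of the brain and a main local source of these cytokines. IL-1α and IL-1β signal through the same receptor, Il1rn encodes the antagonist that occupies this receptor without signalling, and IL-1β and IL-18 are released only after a caspase of the inflammasome has cut their precursors. TNF acts through 2 receptors, and IL-6, LIF and OSM share the signalling chain gp130 (Il6st). Il27 encodes the p28 subunit of IL-27, and IL-10 restrains the production of several of the others, such as TNF and IL-6.

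The labelled cell type was compared with its markers. All 11 microglial markers were over 3 counts in every library, with Csf1r, the receptor for macrophage growth factors, the most abundant on average over the libraries. Their summed level was 6861 (Vehicle) and 7499 CPM (EGCG) in replicate 1, and 7681 and 7951 CPM in replicate 2, where CPM are counts scaled by edgeR's TMM method to a common library size. Single markers of microglia differed in both directions between the replicates. Cx3cr1 was at 266.6 and 273.5 CPM in the Vehicle and EGCG libraries of replicate 1 and at 605.4 and 637.3 in those of replicate 2, whereas Tmem119 was at 35.1 and 26.7 and then at 11.2 and 11.8. The libraries therefore carried a microglial profile whose details differed between the replicates.

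The 10 genes covered a wide range of levels. Per length, as CPM divided by the gene's kilobases (RPKM), Il1rn led in replicate 1 with 129.7 in the Vehicle and 134.5 in the EGCG library, followed by Il1b, Il1a and Tnf at between 29.5 and 40.3. In replicate 2 Il1b led with 610.5 and 607.5 RPKM, and Il1a, Il1rn and Tnf lay between 23.6 and 51.1. Il18 and Osm reached at most 12.4 and 11.4 RPKM, and Il6, Il27, Lif and Il10 stayed at or under 3.05 RPKM in every library. Ranked among the protein-coding genes by RPKM, Il1b was number 1073 (Vehicle) and 1576 (EGCG) in replicate 1, but number 40 and 41 in replicate 2. Il1rn had the opposite order, with ranks 305 and 315 in replicate 1 and 1243 and 803 in replicate 2.

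**Figure D1:**
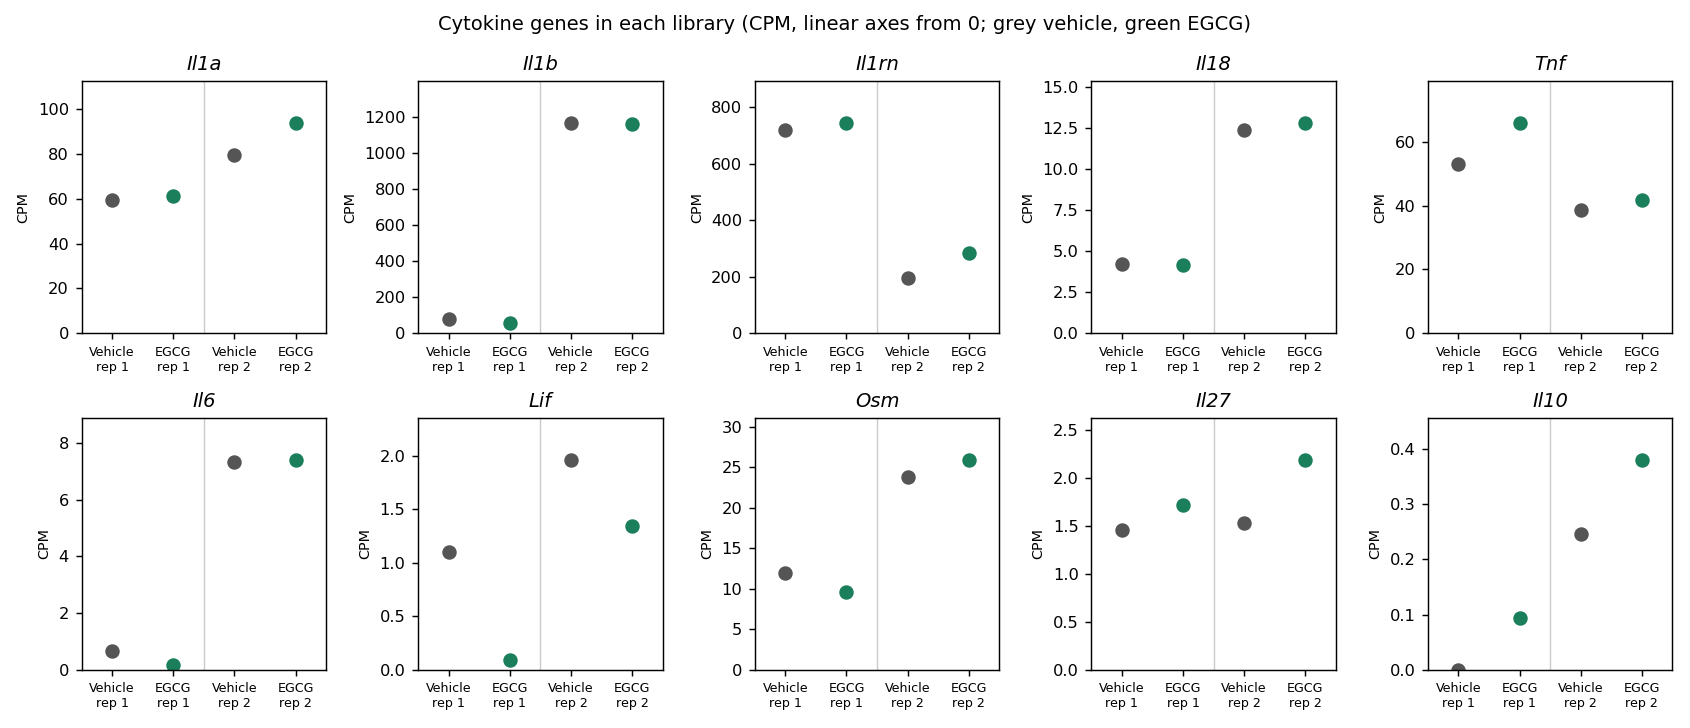
Level of each cytokine gene in the 4 libraries, in CPM on linear axes that start at 0, with Vehicle in grey and EGCG in green (1 point a library). Il1b and Il6 were high in both libraries of replicate 2 and low in both of replicate 1, at 1164 and 1159 against 76.8 and 56.3 CPM for Il1b, and Il1rn shows the opposite order.

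Promoters are shown for Il1b and Il6, the genes with the largest positive log2 difference between the replicates, and for Il1rn, the gene with the largest negative one, since what lies just ahead of the start site can be read beside their values. The sequences are from RefSeq (build GRCm38.p6), and 7 of the 10 genes were matched in the table of promoters used here. Each sequence below runs 5′ to 3′ on the gene's strand, from 150 bases before the start site to 20 bases after it, and capitals mark a match on either strand to any of 6 motifs searched.
Il1b, chr2:129371120-129371289, minus strand: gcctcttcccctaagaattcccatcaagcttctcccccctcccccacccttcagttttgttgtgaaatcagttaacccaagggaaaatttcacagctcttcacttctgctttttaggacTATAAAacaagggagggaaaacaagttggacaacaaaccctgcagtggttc
Il6, chr5:30012964-30013133, plus strand: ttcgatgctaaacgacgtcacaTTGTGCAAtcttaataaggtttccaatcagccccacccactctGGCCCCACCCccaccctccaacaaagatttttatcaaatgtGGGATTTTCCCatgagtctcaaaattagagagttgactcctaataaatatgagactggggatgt
Il1rn, chr2:24336710-24336879, plus strand: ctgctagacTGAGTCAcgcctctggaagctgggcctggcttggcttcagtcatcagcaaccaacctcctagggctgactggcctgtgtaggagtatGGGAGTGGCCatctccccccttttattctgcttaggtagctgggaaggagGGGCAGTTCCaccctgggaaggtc
The motifs were NF-kB (3 G, 5 free bases and 2 C), AP-1 (TGANTCA), C/EBP (TTGCNNAA), the TATA box (TATAAA), STAT (TTCNNNGAA) and CRE (TGACGTCA), where N is any base. In the Il1b window the capitals are a TATA box at -31 to -26, counted from the start site. In Il6 they are an NF-kB match at -85 to -76, a pair of overlapping NF-kB matches from -44 to -34 and a C/EBP match at -128 to -121. In Il1rn, which has 3 RefSeq starts, of which the one nearest to the start in the files was used, they are an AP-1 match at -141 to -135 and NF-kB matches at -54 to -45 and -4 to 6. Among 32851 RefSeq promoters, each from 250 bases before to 50 after a start, 50.79% held the NF-kB letters, 7.808% AP-1, 10.8% C/EBP, 13.62% TATA, 8.298% STAT and 1.79% CRE. A match describes letters and not a bound site, and the NF-kB letters in particular are too common to set these genes apart.

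The first comparison asks whether EGCG changed the transcripts of these cytokines. In the edgeR model that holds treatment alone, none of the 10 genes differed between EGCG and Vehicle at an unadjusted p under 0.05, and DESeq2 without a block called none either. Over all 13811 protein-coding genes tested, 0.116% were called at that threshold, and the adjusted p of each of the 10 genes was 1.0, and at least 0.952 under every alternative tried. The median log2 fold change of the 10 genes was 0.10, against 0.01 over all genes tested. Within replicates, 5 of the 10 were higher with EGCG in both, 2 were lower in both and 3 went in opposite directions. Of all genes tested, 4124 were higher in both, 2851 lower in both and 6769 opposite. The treatments did not overlap for 1 of the 10, Il27, against 11.9% of all genes tested. Since 2 libraries stand against 2, permuting them could reach no two-sided p under 0.333, and all calls rest on the model.

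Vehicle and EGCG libraries of the same replicate number resembled each other far more than libraries of the same treatment. A second fit, in which the replicate number is a block, is therefore given beside the first. With the block, edgeR called 3.21% of all genes at an unadjusted p under 0.05 and 1 of the 10 cytokine genes, Tnf, and DESeq2 called 1.11% of all genes and 1 of the 10, a different gene, Lif. Neither passed after Benjamini-Hochberg adjustment over all genes tested (adjusted p = 0.995 for Tnf in edgeR, adjusted p = 1.0 for Lif in DESeq2).

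**Figure D2:**
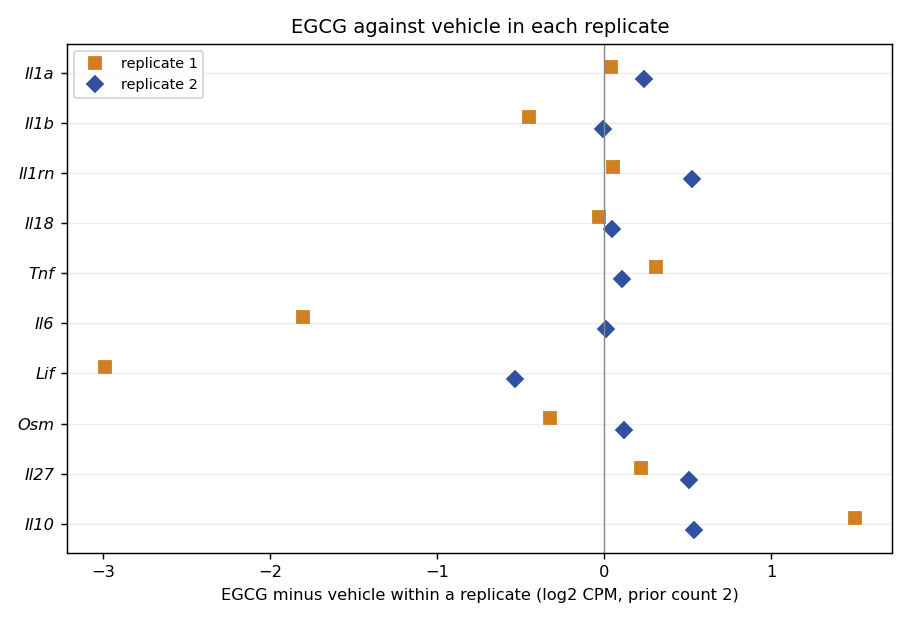
Difference between the EGCG and the Vehicle library within each replicate for the 10 cytokine genes, in log2 CPM with a prior count of 2 (squares, replicate 1; diamonds, replicate 2; the line at 0 marks no difference). Lif and Il6 lie far to the left in replicate 1, at -2.99 and -1.80, and near the line in replicate 2, at -0.53 and 0.01, and the remaining genes except Il10 lie within 0.6 of the line in both.

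Tnf (ENSMUSG00000024401, chromosome 17, 35199381 to 35202007, minus strand, GRCm38) encodes tumour necrosis factor, the ligand of Tnfrsf1a and Tnfrsf1b. It was at 53.2 (Vehicle) and 66.0 CPM (EGCG) in replicate 1 and at 38.7 and 41.7 CPM in replicate 2. EGCG was the higher library in each replicate, while the treatment groups overlapped. The ratio of EGCG to Vehicle was 1.24 in replicate 1 (95% exact binomial interval 1.16 to 1.32) and 1.08 in replicate 2 (1.01 to 1.15), and these intervals cover counting error only. The log2 fold change was 0.23 ± 0.31 (SE; not called) and with the block 0.21 ± 0.07 (called). DESeq2 with the block did not call Tnf.

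Both IL-1 ligands and their antagonist lie on chromosome 2. Il1b (ENSMUSG00000027398, 129364570 to 129371139, minus strand) was at 76.8 (Vehicle) and 56.3 CPM (EGCG) in replicate 1 and at 1164 and 1159 CPM in replicate 2. EGCG went with 0.733 times the Vehicle level in replicate 1 (0.690 to 0.779) and 0.995 times in replicate 2 (0.983 to 1.01). Its log2 fold change was -0.03 ± 1.84 (SE) and -0.21 ± 0.11 with the block. Il1a (ENSMUSG00000027399, 129299610 to 129309972, minus strand), at 59.4, 61.2, 79.4 and 93.9 CPM in the same order of libraries, gave 0.16 ± 0.29 and 0.14 ± 0.07 with the block. Il1rn (ENSMUSG00000026981, 24336853 to 24351494, plus strand) was at 718.2, 744.4, 196.2 and 282.8 CPM. The antagonist was 1.04 times as abundant with EGCG in replicate 1 (1.02 to 1.06) and 1.44 times in replicate 2 (1.40 to 1.48), which gave 0.17 ± 0.82 and 0.29 ± 0.12 with the block. Without the block the errors include the difference between the replicates. Neither fit called a gene of the IL-1 family for EGCG. Il18 (ENSMUSG00000039217, chromosome 9, 50554827 to 50581840, plus strand) was at 4.24 and 4.15 CPM in replicate 1 and at 12.4 and 12.8 in replicate 2, with a log2 fold change of 0.03 ± 0.80 and within-replicate ratios of 0.980 (0.767 to 1.25) and 1.04 (0.919 to 1.17). On the opposite strand Il18 overlaps Bco2, which had 29, 16, 90 and 126 counts in the same order of libraries, while the overlapping partners of Il1b (Il1bos) and Il1a (Gm14023) had at most 25 and 23 counts.

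Among the IL-6 type genes the values of EGCG replicate 1 stood out as low. Lif (ENSMUSG00000034394, chromosome 11, 4257557 to 4272514, plus strand), a stem cell and neuropoietic factor, had 36 counts with Vehicle and 3 with EGCG in replicate 1 and 72 and 74 in replicate 2. The scaled ratio of EGCG to Vehicle was 0.0853 in replicate 1 (0.0168 to 0.270) and 0.683 in replicate 2 (0.487 to 0.958). Its log2 fold change was -1.07 ± 1.26 (SE) in edgeR, -1.61 ± 0.72 with the block and -1.80 in DESeq2 with the block, and only the last was called. Without EGCG replicate 1 the edgeR value was -0.19, and without EGCG replicate 2 it was -4.01. In each a single EGCG library remained, which the fit assumes to vary like the Vehicle pair. With no block in these fits, the difference between the replicates enters the value. Whether the effect of EGCG on Lif or Il6 differed between the replicates was not tested, since no library was left to measure error. Il6 (ENSMUSG00000025746, chromosome 5, 30013114 to 30019981, plus strand), the classical fever and acute-phase cytokine, had 22 counts with Vehicle and 5 with EGCG in replicate 1, and 269 and 409 in replicate 2. The ratio of EGCG to Vehicle was 0.233 in replicate 1 (0.0689 to 0.630) and 1.01 in replicate 2 (0.864 to 1.18), and neither fit called it. Osm (ENSMUSG00000058755, chromosome 11, 4236420 to 4241026, plus strand), next to Lif in the genome, was at 11.98 and 9.58 CPM in replicate 1 and 23.8 and 26.0 in replicate 2, with a log2 fold change of -0.01 ± 0.63.

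Markers of stromal cells, such as fibroblasts of the meninges, moved with Lif and Il6 in replicate 1. The 7 stromal markers summed to 425.7 (Vehicle) and 5.80 CPM (EGCG) in replicate 1 and to 161.2 and 178.2 CPM in replicate 2, with Col3a1 the most abundant. In EGCG replicate 1, 4 of the 7 were over 3 counts and Lum was at 0, against 7 of 7 in each other library. Col1a1, the main chain of type I collagen, was at 120.7 CPM in Vehicle replicate 1 and at 0.125 in EGCG replicate 1. Osmr, the OSM receptor, showed the same order of levels, at 2.83 and 0.187 CPM in replicate 1 and 2.46 and 2.52 in replicate 2. The part of these cells in the values of Lif and Il6 was not tested, and in bulk RNA fewer cells of a type and less RNA per cell cannot be told apart.

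**Figure D3:**
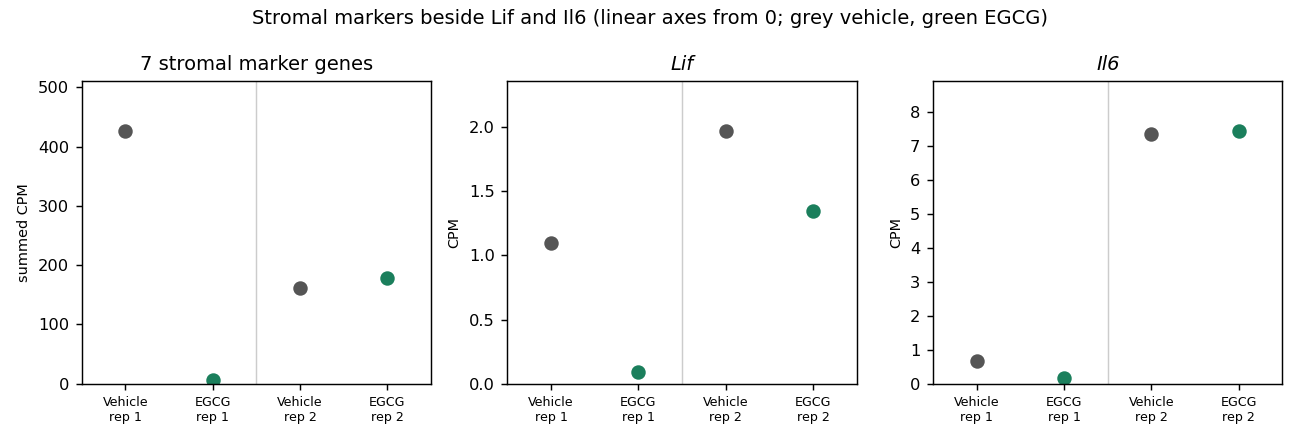
Summed level of 7 stromal marker genes (left) beside Lif (middle) and Il6 (right) in the 4 libraries, in CPM on linear axes from 0 (grey, Vehicle; green, EGCG). EGCG replicate 1 is the lowest library in all 3 panels, while the stromal sum is highest in Vehicle replicate 1, where Il6 is low.

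Il27 (ENSMUSG00000044701, chromosome 7, 126589010 to 126594941, minus strand) and Il10 (ENSMUSG00000016529, chromosome 1, 131019845 to 131024974, plus strand) were scarce. Il27 was at 1.46 (Vehicle) and 1.72 CPM (EGCG) in replicate 1 and at 1.53 and 2.19 CPM in replicate 2. Both EGCG libraries were above both Vehicle libraries, with a log2 fold change of 0.39 ± 0.38 (SE) and 0.38 ± 0.28 with the block. Il27 overlaps Apobr on the opposite strand, which had between 3878 and 5284 counts. The libraries were directional, and the study's methods call the mRNA quantification strand-specific. The strand setting of the counting itself is not given in the sources used here, so some of the few Il27 reads may belong to Apobr. Il10 had 0 counts with Vehicle and 3 with EGCG in replicate 1, and 9 and 21 in replicate 2. The count of 0 allows a level of up to 0.112 CPM, the upper end of a two-sided 95% exact Poisson interval (the floor of 3 counts is 0.0914 CPM). This interval takes in the 0.0936 CPM of the EGCG library of replicate 1. No difference between treatments was detectable at this depth.

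The second comparison sets replicate 2 against replicate 1, with treatment kept in the model, and here most of the cytokine genes differed. In edgeR, 9 of the 10 genes differed at an adjusted p under 0.1, 7 of them higher in replicate 2 (Il1a, Il1b, Il18, Il6, Lif, Osm and Il10) and 2 lower (Il1rn and Tnf). Il10 passed the filter on low counts only through replicate 2, so its call lends the count no support; without it 8 of 9 were called, 6 higher and 2 lower. Most genes of these cells differed too: of all genes tested, 53.5% were called, 27.7% higher and 25.7% lower in replicate 2. The higher genes made up 51.9% of these calls; scaling by upper quartiles made this 44.3%, and scaling by library totals 61.4%. The replicates did not overlap for 9 of the 10 genes, or 8 of 9 without Il10, against 76.5% of all genes. A difference of over 1 on the log2 scale, a limit chosen after the values had been seen, was passed together with the adjusted p by 7 of the 10 (Il1b, Il1rn, Il18, Il6, Lif, Osm and Il10), by 6 of 9 without Il10, and by 13.1% of all genes. The median log2 fold change was 1.21 without Il10, against 0.01 over all genes. The biological replicate and the deposited table go together here and cannot be told apart, and the labels name no batch. The test treats the 2 libraries of a number as repeats, so it compares these 2 replicates and not cultures in general.

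**Figure D4:**
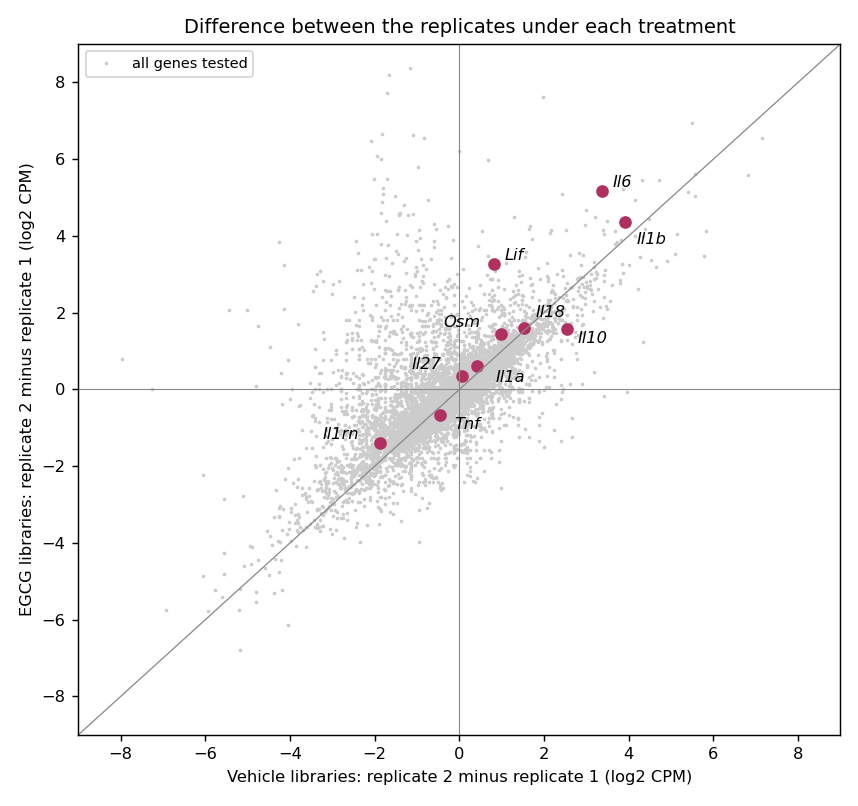
Replicate 2 minus replicate 1 in log2 CPM, for the Vehicle libraries (horizontal axis) and the EGCG libraries (vertical axis); each grey point is 1 of 13811 genes tested, cytokine genes are in red, and the diagonal marks equal differences. Il1b lies far up near the diagonal (3.92 and 4.36), Il6 far up but above it (3.36 and 5.17) and Il1rn below the origin, and the sign of the difference was the same with and without EGCG.

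Among the 10 genes Il1b had the smallest adjusted p. It was at 66.6 ± 14.5 CPM in replicate 1 and 1161 ± 4.01 in replicate 2 (mean ± SD, n = 2 libraries each, 1 of each treatment), 17.6-fold higher in replicate 2 (log2 fold change 4.14 ± 0.12, edgeR adjusted p = 0.000128). Among all genes tested it ranked 61 from the most positive log2 fold change and 31 by p. Il6 was 18.8-fold higher in replicate 2 (log2 fold change 4.24 ± 0.47, edgeR adjusted p = 0.00182). The ratio of its pooled counts, 678 against 27, was 17.7 (12.1 to 27.1, an interval of counting error only). With the treatment term left out, its log2 fold change was 4.14 over all libraries, 5.53 without Vehicle replicate 1 and 3.45 without EGCG replicate 1, all of them called. Even so, Il6 stayed a scarce transcript, at 7.34 and 7.41 CPM in the Vehicle and EGCG libraries of replicate 2. Il18 was 2.998-fold higher (1.58 ± 0.12, adjusted p = 0.000524), Osm 2.32-fold higher (1.21 ± 0.13, adjusted p = 0.00152) and Il1a 1.43-fold higher (0.52 ± 0.07, adjusted p = 0.00364).

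Il1rn had the opposite order to Il1b. Its level was 731.3 ± 18.5 CPM in replicate 1 and 239.5 ± 61.2 in replicate 2 (mean ± SD, n = 2), 0.323 times as high in replicate 2 (log2 fold change -1.63 ± 0.12, edgeR adjusted p = 0.000526). Per length, the antagonist was 3.22 (Vehicle) and 4.55 times (EGCG) as high as Il1b in replicate 1, whereas Il1b was 17.2 and 11.9 times as high as the antagonist in replicate 2. Both libraries of a replicate gave the same order. Il1b and Il1a, close to each other in RPKM in replicate 1 with ratios of 1.34 and 0.952, were far apart in replicate 2, where Il1b was 15.2 and 12.8 times as high. Of the summed RPKM of all 10 genes, Il1b made up 16.5% and 12.04% in replicate 1 and 82.8% and 79.8% in replicate 2, and Il1rn 53.2% and 54.8% and then 4.81% and 6.71%.

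**Figure D5:**
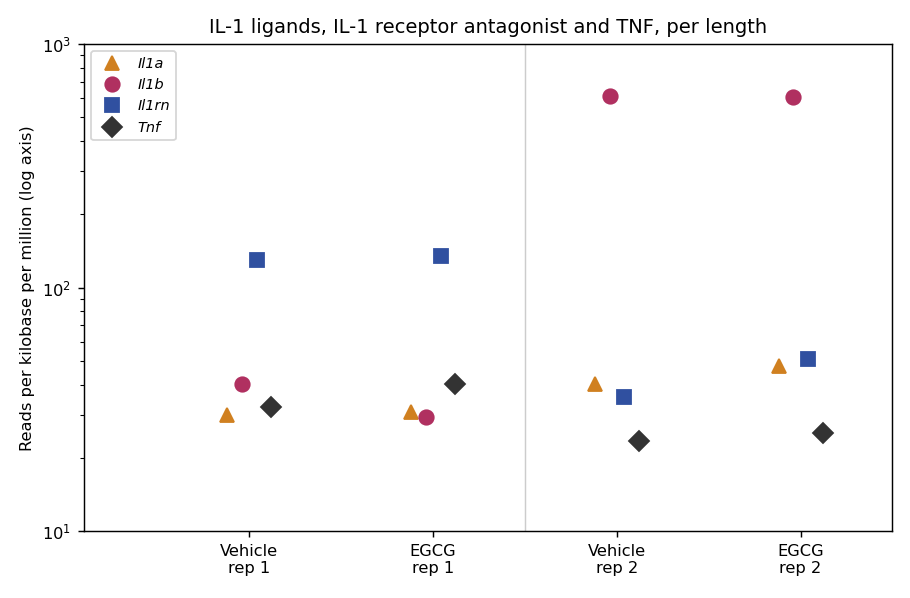
Il1a, Il1b, Il1rn and Tnf in the 4 libraries in RPKM on a log axis, with 1 symbol for each gene. Il1rn leads in both libraries of replicate 1, at 129.7 and 134.5, and Il1b leads in both of replicate 2, at 610.5 and 607.5.

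Tnf did not follow Il1b and Il6. It was 0.677 times as high in replicate 2 as in replicate 1 (log2 fold change -0.56 ± 0.07, edgeR adjusted p = 0.00303), a direction kept in every alternative run. The call was lost when both Vehicle replicate 2 and the treatment term were left out (-0.50, adjusted p = 0.109). For the scarcest genes the call was fragile. Lif was higher in replicate 2 (1.95 ± 0.73, adjusted p = 0.0831), but the call was lost when the treatment term alone was left out (1.46, adjusted p = 0.179). With that term left out, the log2 fold change was 0.56 without EGCG replicate 1 (adjusted p = 0.241) and 4.08 without Vehicle replicate 1 (adjusted p = 0.00022). The ratio of pooled counts was 2.64 (1.85 to 3.87). This interval, and that of Il10 below, cover counting error only and not the spread between the libraries of a replicate. Il10, with 3 counts in replicate 1 and 30 in replicate 2, gave a ratio of 7.06 (2.20 to 36.2) and an edgeR adjusted p of 0.0971. DESeq2 did not call it (adjusted p = 0.214). In edgeR the call was also lost with DESeq2's scaling (adjusted p = 0.103) and without the filter on low counts (adjusted p = 0.113). It was kept with the treatment term left out (2.69, adjusted p = 0.0717). With that term left out, the log2 fold change of Il10 was 1.74 without Vehicle replicate 1 and 6.75 without EGCG replicate 1. Il27 was the member that did not differ at the threshold (0.21 ± 0.28, adjusted p = 0.573), and its replicates overlapped.

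Genes whose levels over the 4 libraries lay closest to each cytokine gene were looked up by the distance of centred log2 CPM. The search covered 11620 genes with at least 10 counts in each library. Il6, Lif and Il10 had fewer in EGCG replicate 1 and were not tried. The distance is not scaled to the size of a gene's differences, and of the cytokine genes tried Il1b differed most between the replicates. The nearest gene of Il1b was farther away than that of any other member tried: this gene, the transporter Slco2b1, lay at a distance of 0.44, with 3.57, 3.34, 47.7 and 48.8 CPM in Vehicle and EGCG of replicate 1 and then of replicate 2, and the lectin gene Clec4a4 at 0.44. Nearest to Il1rn was F2rl2 at 0.07, to Il18 Tnfrsf14 at 0.06, to Tnf Arhgap15 at 0.01, to Il1a H2-Oa at 0.04, to Osm Egln3 at 0.06 and to Il27 Rassf7 at 0.05. With 4 libraries, of which pairs share a replicate, such closeness is a description only.

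The receptors of these cytokines were present at levels of their own. Of 16 receptors and decoys, 15 were tested. None was called for EGCG without the block, against 0.116% of all genes, and 1 was called in edgeR with the block, against 3.21% of all genes. Between the replicates 5 were higher and 3 lower in replicate 2, with a median log2 fold change of 0.23 over the 15, a share of calls near the 53.5% of all genes. The TNF receptor Tnfrsf1b was the most abundant per length, at between 147.3 and 164.3 RPKM, followed on average by Tnfrsf1a at between 59.2 and 74.3, though Il10ra was above Tnfrsf1a in replicate 2, at 89.0 and 86.3 RPKM. The shared chain Il6st was at 392.4, 404.9, 413.4 and 428.2 CPM and did not pass the test in either comparison (adjusted p = 0.270 between replicates). Il10ra, the ligand-binding chain of the IL-10 receptor, was at 117.1 and 128.1 CPM in replicate 1 and at 311.4 and 301.9 in replicate 2 (log2 fold change 1.32, edgeR adjusted p = 0.000181), and Il10rb was higher in replicate 2 by 0.65. Il6ra, the IL-6 binding chain, was at 41.4 and 37.4 CPM in replicate 1 and at 107.5 and 94.8 in replicate 2. It was the receptor that edgeR with the block called for EGCG (log2 fold change -0.17, adjusted p = 0.995), while DESeq2 with the block called no receptor. Il6ra was higher in replicate 2 by 1.36. Lifr was higher in replicate 2 by 2.18, from 2.04 and 2.12 to 9.25 and 9.70 CPM. Il1r1, the signalling IL-1 receptor, was lower by 1.22, from 16.8 and 16.9 to 6.82 and 7.61 CPM. Its partner Il1rap was at between 12.2 and 17.6 CPM, the decoy Il1r2 at no more than 0.327 CPM, and Il18r1 had 0 counts in all libraries, while Il18bp, which binds free IL-18, was at between 8.72 and 12.3 CPM. Il27ra was at 3.47 and 3.78 CPM in replicate 1 and at 2.18 and 2.59 in replicate 2.

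Of 10 partners and processing genes, none was called for EGCG without the block, against 0.116% of all genes. With the block edgeR called 1 of the 10, against 3.21% of all genes. This was Ebi3, which encodes the partner of p28 in IL-27, at 22.4 and 28.5 CPM in replicate 1 and 73.2 and 80.0 in replicate 2 (log2 fold change for EGCG 0.23 in edgeR with the block, adjusted p = 0.995), which DESeq2 with the block did not call. Ebi3 was higher in replicate 2 by 1.60 on the log2 scale (adjusted p = 0.000189), while Il27 itself was at 0.21. In all, 5 of the 10 were higher and 1 lower in replicate 2, with a median of 0.13, against 27.7% and 25.7% of all genes. The inflammasome sensor Nlrp3 was higher by 0.69 (adjusted p = 0.000927) and its adaptor Pycard lower by 0.68, at 96.8 and 106.9 and then 64.8 and 62.1 CPM. Casp1, which cuts the IL-1β and IL-18 precursors, was the most abundant per length, at between 66.7 and 79.0 RPKM, and did not pass the test (adjusted p = 0.266). Adam17, which sheds TNF from the cell surface, was at between 41.4 and 47.6 RPKM.

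Of 22 adaptors, kinases and feedback genes, all tested, none was called for EGCG without the block, against 0.116% of all genes. With it edgeR called 2 higher and 2 lower, against 3.21% of all genes. The higher ones were Nfkbia and Tnfaip3, both inhibitors of NF-kB signalling. Nfkbia was at 60.4 and 72.3 CPM in replicate 1 and 103.5 and 116.9 in replicate 2 (log2 fold change for EGCG 0.22), and Tnfaip3 at 124.5, 137.1, 124.3 and 154.0 CPM (0.23). The lower ones were Stat3, the main transducer of gp130 signals, and its feedback inhibitor Socs3. Socs3 was at 25.8 and 17.4 CPM in replicate 1 and 85.7 and 72.9 in replicate 2 (-0.39), and Stat3 at 151.1, 134.2, 217.6 and 203.3 CPM (-0.13). None of the 4 passed after adjustment over all genes (adjusted p = 0.995 for each, edgeR), and DESeq2 with the block called all but Stat3. Between replicates 12 of the 22 were higher in replicate 2 and 4 lower, with a median of 0.36. Of all genes tested, 27.7% were higher and 25.7% lower. Socs3 was higher by 1.90 (adjusted p = 0.000212) and Irak3, a brake on IL-1 receptor signalling, by 1.29 (adjusted p = 0.000195). Per length Nfkbia, Jak1 and Myd88 were the most abundant, with Jak1 at between 48.7 and 56.2 RPKM and Myd88 at between 28.9 and 34.4.

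Of 56 symbols of other ligands of these families, 52 were in the files, and only 21 of them had enough counts to be tested. Tnfsf12 (TWEAK), Il15 and Tnfsf9 were the most abundant per length, with Tnfsf12 at between 11.6 and 18.4 RPKM. None of the 21 was called for EGCG without the block, against 0.116% of all genes. With the block edgeR called 1 of the 21, against 3.21% of all genes. This was Clcf1, a further gp130 ligand, at 14.5 and 12.3 CPM in replicate 1 and 7.50 and 5.62 in replicate 2 (log2 fold change -0.32, adjusted p = 0.995). DESeq2 with the block did not call Clcf1. Between replicates 4 were higher and 6 lower in replicate 2, with a median of 0.41, a share of calls that does not exceed that of all genes. The IL-1 family gene Il1f9, which encodes IL-36γ, was at 3.47 and 3.37 CPM in replicate 1 and at 0.136 and 0.363 in replicate 2 (-3.79, adjusted p = 0.00222), the opposite direction to Il1b. Tnfsf8 was lower by 2.22, and Il16 was higher by 1.34. Il12b, which encodes a subunit shared by IL-12 and IL-23, was at or under 0.779 CPM in every library.

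Markers of further cell types also differed between the replicates, and their part in the cytokine values was not tested. The 3 endothelial markers summed to 2.47 and 0.905 CPM in the Vehicle and EGCG libraries of replicate 1 and to 16.8 and 13.7 in those of replicate 2. Replicate 1 held mostly Cdh5 (2.41 and 0.811 CPM) and replicate 2 mostly Pecam1 (15.8 and 13.4 CPM), and Cldn5 was at 0 in all libraries. The 3 neuronal markers summed to 17.5 and 16.6 CPM and then to 0.791 and 1.11, of which Snap25 made up 17.2 and 16.3 CPM in replicate 1 and 0.518 and 0.652 in replicate 2. The 8 astrocyte markers summed to 22.6, 16.9, 14.3 and 15.2 CPM, with Aldh1l1 the most abundant. The 6 markers of the oligodendrocyte lineage, mostly Mbp, summed to between 72.1 and 74.3 CPM, and the 3 T cell markers to no more than 0.061. Of all marker genes, edgeR with the block called Trem2 (log2 fold change 0.15) and Cdh5 (-1.75) for EGCG, where 3.21% of all genes tested were called. Neither marker passed after adjustment (adjusted p = 0.995 for each). DESeq2 with the block called 3 microglial markers higher, among them Trem2 and Cd68 (0.14 and 0.13). It called 1 endothelial and 1 stromal marker lower, Cdh5 (-1.77) and Pdgfrb (-1.06), where 1.11% of all genes tested were called. Pdgfrb was at 4.33 and 0.936 CPM in replicate 1 and 3.79 and 3.79 in replicate 2. None of these DESeq2 calls passed after adjustment (adjusted p = 1.0 for each).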

How the data were processed

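Per the labels and the study's methods, the authors prepared directional poly-A libraries and aligned filtered reads with HISAT2 to GRCm38.p6. The methods call the mRNA quantification strand-specific, but the counting program and its strand setting are not given in the sources used here. The deposited values are raw counts per gene, with gene lengths, in 1 table for each replicate, which the study's sample sheet ties to the sample titles. Tables were joined on the Ensembl identifier, leaving out 697 and 329 separately assembled loci. Protein-coding genes whose counts over all libraries came to 10 or more were tested with edgeR 4.0.16 (R 4.3.3; TMM, quasi-likelihood, two-sided, Benjamini-Hochberg over 13811 genes), with DESeq2 1.42.0 as an alternative. RPKM used the deposited lengths. The SE of an edgeR log2 fold change is its absolute value divided by the square root of the quasi-likelihood F statistic. It is thus derived from the test and is not a fitted standard error. A count of 3 corresponds to between 0.0544 and 0.0936 TMM-scaled CPM.

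Chi-square per gene was 8.21 and 7.15 between the treatments of a replicate and 169.25 and 168.67 between replicates, so no library was a copy. The labels do not say that numbers pair the libraries, so the block is an alternative. The cytokine genes, lists and rules for named genes (the cytokines, list genes called with or without the block, the 3 highest of each list per length, the receptors) were chosen with earlier results of these data known; further list genes were named after their values were seen. The fits were also run on simulated data, of which no values are given here. Alternatives covered tool, scaling, filter, gene classes, block and leaving out each library.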

Additional observations from a re-analysis of the deposited data

How the results depend on the processing

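For EGCG against Vehicle, genes at an unadjusted p under 0.05 numbered 16 in edgeR with treatment only. With the replicate block the count was 444, and 153 when DESeq2 was used with it, 6 under edgeR's own filter (filterByExpr), 35 with all gene classes, and, with the newer dispersion method, added after seeing the data, 38 without and 524 with the block. Leaving out a library gave between 8 and 131, with 8 without EGCG replicate 1, 57 without Vehicle replicate 2 and 131 without EGCG replicate 2. Of the 10 cytokine genes, 0 were called with treatment only, 1 with the block in edgeR (by either dispersion method, Tnf) and 1 in DESeq2 with the block (Lif), and between 0 and 1 when a library was left out. The causes were not tested. Of the values of single cytokine genes, 145 alternatives for EGCG stayed on their side of the threshold and 4 crossed it, all for Tnf or Lif. Leaving out single libraries turned the sign of the log2 fold change for 8 of the 10. These fits had no block, so a missing library left the treatments unevenly spread over the replicates. The difference between the replicates then enters the value, and these fits cannot show how stable the EGCG difference was. Ranges over the alternatives were -3.49 to 2.98 for Il1b, -4.68 to 2.50 for Il6, -0.70 to 1.39 for Il1rn and -0.14 to 0.49 for Tnf. Lif stayed negative and Il27 positive throughout. With the block, in edgeR or DESeq2, each of the 10 kept the sign of the treatment-only fit. Between replicates 117 stayed and 12 lost the call, all for Il10, Lif or Tnf. The leave-one-out fits there had no treatment term. They called between 5558 and 7618 genes and between 6 and 8 of the 10 cytokine genes, and 7824 and 8 without the term alone. Across genes, the replicate difference in Vehicle correlated with that in EGCG at r = 0.641, but the numbers are not stated to pair the libraries. Other scalings moved the median of all genes by at most 0.0791 on the log2 scale. Depth limits Il10, Lif, Il27 and Il6, where a few counts decide a fold.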
